A study of Oryza sativa with 5 samples.

Results

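The genes described here encode the proteasome and its close partners in rice (Oryza sativa). They were taken by their annotation: every gene of the deposited expression tables whose description held "proteasome", "26S protease" or "26S proteasome" in any letter case, which gave 45 of the 22546 genes listed. Transcripts were counted by digital gene expression, a method that sequences 1 short tag per transcript from the last CATG site before the poly(A) tail, so that levels of different genes can be set side by side without a correction for length. Values are tag counts and TPM, the tags of a gene per 1000000 clean tags of its library. There were 5 libraries, 1 for each genotype, and none was replicated, so no spread between plants could be measured. Every interval and p-value below covers counting error only, and a difference between libraries has no replicate check as a difference between genotypes.

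The seedlings were 15 days old and had grown on half-strength MS medium with 15 h of light at 30 °C and 9 h of darkness at 25 °C. MH63 (Minghui 63, the male parent) and ZS97 (Zhenshan 97, the female parent) are indica lines, and SY63 (Shanyou 63) is their hybrid. The tags were matched to a japonica reference. A sequence difference between the lines in a tag or its CATG site could therefore change a count, which was not tested. FU was the SY63 hybrid with OsHDT1, a plant-specific HD2-type histone deacetylase gene, over-expressed from the maize ubiquitin promoter, and FR was the SY63 hybrid with an OsHDT1 RNAi construct behind the CaMV 35S promoter. Both constructs were carried in by a transformed MH63 father and act in any tissue where those promoters are active. How many seedlings went into a library, and how many transgenic lines FU and FR stood for, is not given in the sources used here. Among the hybrids the targeted gene followed the labels, with 428 OsHDT1 tags in SY63 (88.1 TPM), 7590 in FU (1574 TPM) and 142 in FR (28.3 TPM). Neither parent carries a construct by its label, yet MH63 had 2633 tags (524 TPM), far above SY63 and ZS97 (304 tags, 61.3 TPM). By contrast, the authors saw no clear difference in OsHDT1 transcript between MH63 and SY63 by quantitative RT-PCR. Their Western blots of older leaves showed none in protein among MH63, ZS97 and SY63.

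The 26S proteasome is the ATP-dependent protease that breaks down proteins tagged with ubiquitin. Its 20S core is a barrel of alpha and beta subunits with the active sites inside, and a 19S regulatory particle caps it: a base with a ring of Rpt ATPases that unfold the substrate and feed it in, and a set of Rpn subunits without ATPase activity that bind and remove the ubiquitin chain. In plants, hormone responses, light signalling and the daily clock all use this route to remove regulators, and many of its subunits are encoded by gene pairs.

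By description the 45 genes held 12 Rpt ATPases, 13 non-ATPase (Rpn) subunits, 5 proteasome/cyclosome repeat proteins, 12 genes described only as a proteasome subunit, and 3 others. The 13 include LOC_Os09g25310 and LOC_Os03g55110, named below as assembly chaperones in other species, and both stay in all counts and sums of that group. No description named a subunit as alpha or beta. The repeat proteins share a repeat known from the large scaffold subunits Rpn1 and Rpn2 and from the largest subunit of the anaphase-promoting complex (the cyclosome), and the others are the core assembly factor UMP1, a proteasome inhibitor-related gene and a gene called proteasome-related. In the libraries 4821637 to 5022081 clean tags had been sequenced, and 3396913 to 3712043 of them lay on genes. The floor was set at 3 tags, which is 0.597 to 0.622 TPM depending on the library. A gene without a tag may still have been transcribed at a low level. The OsHDT1 level of MH63 was above those of ZS97, SY63 and FR, though below that of FU. The MH63 library stood apart from the rest in the share of all genes called (given below) and in its chlorophyll A-B binding genes. Its 17 chlorophyll A-B binding genes, markers of green tissue, summed to 5004 TPM, against 10928 in FR, 13278 in FU, 14174 in SY63 and 14796 in ZS97. With the 4 Rubisco small-chain genes added, the 21 green markers summed to 47818 TPM in MH63 and to 55986 to 69026 TPM elsewhere, and none was at 0. Of the root markers only OsLsi1 was counted here, at 67 tags in SY63, 76 in FU and 132 in FR, against 64 in MH63 and 66 in ZS97.

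Most proteasome transcripts were moderately abundant. The mean level over the 5 libraries ran from 0.0824 to 106 TPM with a median of 30.1 TPM. Of the 45 genes, 42 had at least 10 tags in every library. For these 42 the highest library exceeded the lowest by 1.16- to 3.92-fold, with a median of 1.85-fold, and 16 of them exceeded 2-fold. Among the 44 genes with at least 10 tags over the 5 libraries, the MH63 library held the highest level for 23, FU for 10, SY63 for 6, ZS97 for 5 and FR for 0. Over all genes the share with its highest level in MH63 was 36.3%, and in FR 11.6%. With edgeR's TMM factors, which align the libraries on the bulk of their genes, MH63 was highest for 21 of the 44 (30.1% of all genes) and FR for 4 (14.5%). Over the same 44 genes the Spearman correlation of log2 levels between MH63 and each other library was 0.82 to 0.86, and between the other 4 libraries it was 0.93 to 0.96. These are descriptions across genes, which are not independent replicates.

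**Figure D1:**
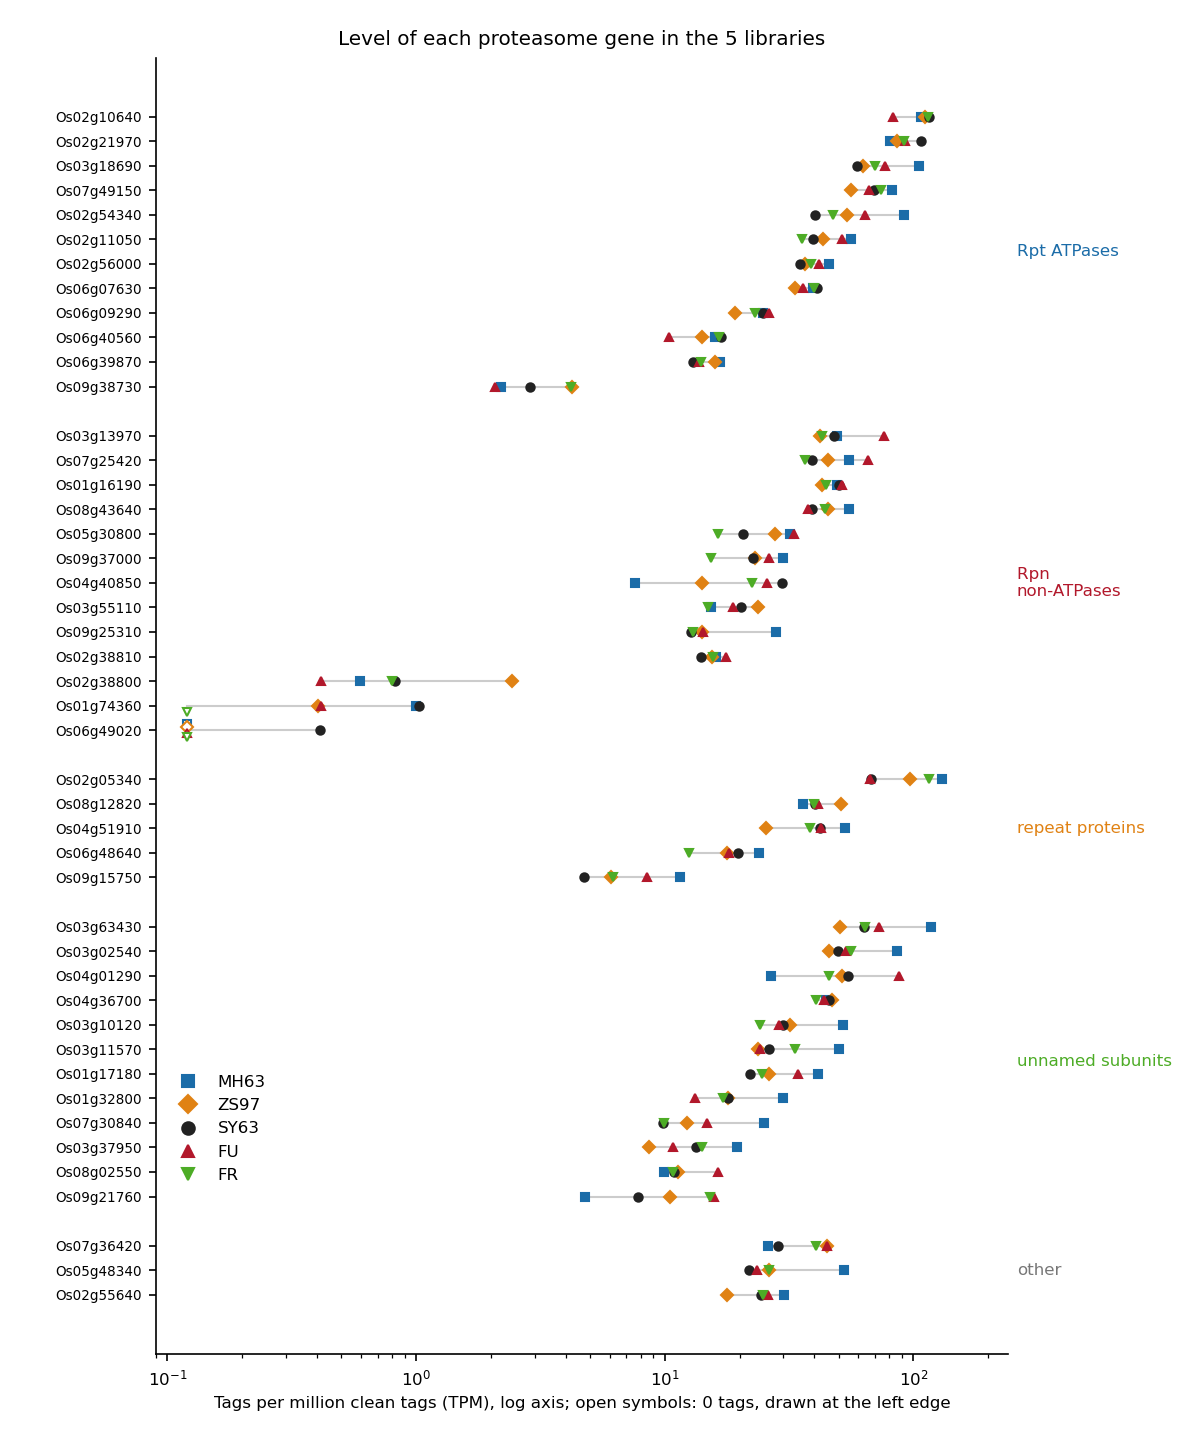
TPM of each of the 45 proteasome genes (rows, grouped by role and ordered by mean level) in the 5 libraries (symbols), on a log axis, with open symbols for 0 tags. Most genes lie between 10 and 100 TPM with their 5 symbols close together, and the MH63 square is the highest symbol for 23 genes.

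Summed over the 45 genes, proteasome transcripts were highest in the MH63 library. The sum was 1463 TPM in SY63 (7108 tags), 1619 in FU (7807 tags) and 1495 in FR (7492 tags), beside 1879 in MH63 (9434 tags) and 1457 in ZS97 (7225 tags). MH63 stood above the other 4 libraries and FU came next, while ZS97, SY63 and FR lay close together. On the log2 scale MH63 exceeded ZS97 by 0.37 (95% counting interval 0.32 to 0.41), and FU exceeded SY63 by 0.15 (0.10 to 0.19). SY63 differed from ZS97 by 0.01 (-0.04 to 0.05) and FR from SY63 by 0.03 (-0.02 to 0.08), and both intervals include 0. These sums moved with the scaling. With TMM factors the excess of MH63 over ZS97 was 0.18 (0.13 to 0.22) and that of FU over SY63 0.09 (0.05 to 0.14). FR then exceeded SY63 by 0.06 (0.01 to 0.11), an interval that no longer includes 0. The excess of FU over FR went from 0.12 (0.07 to 0.16) to 0.03 (-0.01 to 0.08), so that one was not distinguishable from 0 by counting error with TMM factors. In bulk seedlings a larger share of cells rich in these transcripts and more transcript per cell cannot be told apart.

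The groups did not share 1 order. The Rpt ATPases summed to 667 TPM in MH63 (645 to 690) and to 537 to 569 TPM in the other libraries. The non-ATPase subunits were highest in FU, at 368 TPM (351 to 386), against 298 in SY63, 266 in FR, 339 in MH63 and 296 in ZS97. The unnamed proteasome subunits summed to 351 TPM in SY63, 416 in FU and 355 in FR, against 508 in MH63 and 337 in ZS97. So in clean-tag TPM the summed surplus of FU over the other hybrids lay mostly in the non-ATPase and the unnamed subunits. The Rpt ATPases of FU (564 TPM) and SY63 (565 TPM) were within counting error. In FU against SY63, 7 of 13 non-ATPase and 7 of 12 unnamed subunit genes were higher, beside 55.4% of all genes. The median log2 ratios were 0.04 and 0.16, beside 0.06 over all genes. Much of each surplus over SY63 came from few genes, LOC_Os03g13970 and LOC_Os07g25420 in the first group and LOC_Os04g01290 in the second. The repeat proteins went another way, with 174 TPM in SY63, 177 in FU and 212 in FR, beside 255 in MH63 and 198 in ZS97. Of the 1281 repeat protein tags in MH63, 657 fell on 1 gene, LOC_Os02g05340. The same gene had 67.3 TPM in SY63, 67.0 in FU and 115 in FR, so it carried the higher sum of FR. In FR against SY63, 2 of the 5 repeat protein genes were higher and 3 lower.

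**Figure D2:**
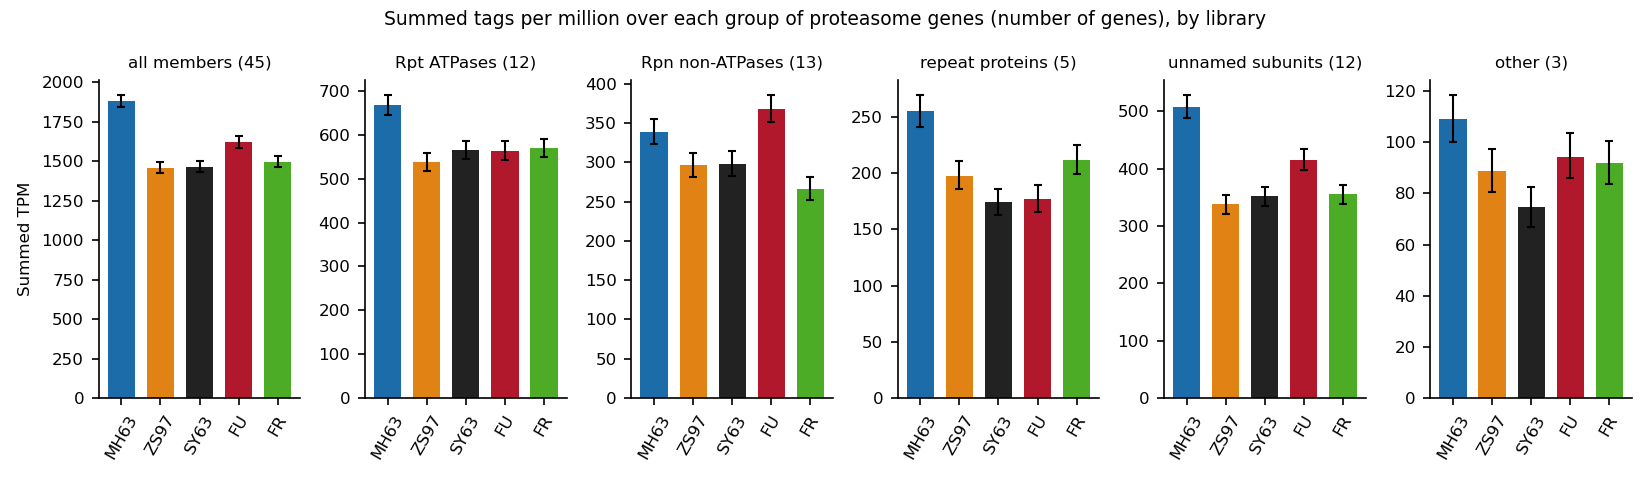
Summed TPM (vertical axes from 0) of all 45 proteasome genes and of each group, by library, with 95% Poisson intervals for counting error. MH63 is the highest bar in every panel except the non-ATPase subunits, where FU is highest at 368 TPM.

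The first question of the design was how the hybrid compares with its parents. Genes were called when the exact Audic-Claverie test of tag counts gave an FDR of at most 0.001, adjusted by Benjamini-Hochberg over all genes with a tag in either library, and its TPM differed at least 2-fold (1 on the log2 scale). Against MH63, SY63 had 7 of 45 proteasome genes called, which is 15.6%, beside 16.5% of all 20948 genes tested. Of these, 2 were higher and 5 lower in SY63, beside 7.1% and 9.37% of all genes. Among genes with at least 50 tags over both libraries, the depth at which most proteasome genes lie, 22.7% were called. By the FDR alone 19 proteasome genes passed, 3 higher and 16 lower, which is 42.2% beside 27.0% of all genes. That background was not matched for depth, and a count test passes more easily at high counts, so the 2 shares are not like for like. The same limit holds for every later count by the FDR alone or by an unadjusted exact p. It also holds for later counts of called genes where no share among genes with at least 50 tags is given. The median log2 ratio of the 45 genes was -0.32, and over all genes it was -0.09. Scaling by TMM factors adds the same 0.14 to every ratio of this comparison, which put the medians at -0.17 and 0.05. With TMM factors 5 of the 7 genes were still called, 2 higher and 3 lower, and of all genes called the higher share moved from 43.1% to 56.0%. An edgeR exact test was run with TMM factors and an assumed coefficient of variation of 0.2 between plants. It called 1 of 45 proteasome genes, beside 3.33% of all genes. The 21 green markers mostly changed in the opposite direction in the same comparison, with 11 called higher and 0 called lower in SY63. Of those called, 10 were chlorophyll A-B binding genes. The part of the green markers in the proteasome result was not tested.

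LOC_Os04g40850 rose most. It is described as non-ATPase regulatory subunit 6, the lid subunit known in yeast as Rpn7. Its level was 29.6 TPM in SY63 (144 tags), 25.7 in FU (124 tags) and 22.3 in FR (112 tags), against 7.57 in MH63 (38 tags) and 14.1 in ZS97 (70 tags). All 3 hybrid libraries were above both parents, and MH63 was the lowest. The log2 ratio of SY63 to MH63 was 1.97 (95% interval 1.45 to 2.53, exact Audic-Claverie FDR 2.36e-15), a 3.92-fold difference. Against ZS97 it was 1.07 (0.65 to 1.5, FDR 4.10e-06). It was the 1 proteasome gene still called in the edgeR test with an assumed variation.

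The other gene called higher, LOC_Os04g01290, is described only as a proteasome subunit. It had 54.6 TPM in SY63, 87.3 in FU and 45.7 in FR, beside 26.7 in MH63 and 51.8 in ZS97. The low library was MH63 and the high one FU, while ZS97, SY63 and FR lay together. SY63 exceeded MH63 by 1.03 on the log2 scale (0.73 to 1.34, FDR 5.34e-11) and differed from ZS97 by 0.07 (-0.18 to 0.33).

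Each of the 5 genes called lower in SY63 than in MH63 came from a different group. LOC_Os02g54340 encodes the base ATPase regulatory subunit 7 (Rpt1), and its level was 40.1 TPM in SY63, 64.1 in FU and 47.3 in FR, against 91.6 in MH63 and 53.9 in ZS97. SY63 was the lowest of the 5 and MH63 the highest, with a log2 ratio of -1.19 (-1.44 to -0.95, FDR 1.57e-22). LOC_Os09g25310, non-ATPase subunit 9, is known in yeast and mammals as an assembly chaperone of the base that leaves the finished particle. It stood at 28.1 TPM in MH63 and at 12.8 in SY63, 14.3 in FU, 13.0 in FR and 14.1 in ZS97. So MH63 alone was high, and the log2 ratio of SY63 to MH63 was -1.14 (-1.59 to -0.70, FDR 5.17e-07). Under TMM scaling it was -0.99 and no longer called.

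The proteasome-related gene LOC_Os05g48340 had 21.8 TPM in SY63, 23.4 in FU and 26.3 in FR, beside 52.6 in MH63 and 26.2 in ZS97. The unnamed subunit gene LOC_Os07g30840 had 9.88, 14.7, 9.98, 25.1 and 12.3 TPM in the same order of libraries. In both genes MH63 was high. The other libraries lay at 21.8 to 26.3 TPM for the first gene. For the second they lay at 9.88 to 14.7 TPM, with FU the highest of them. The log2 ratios of SY63 to MH63 were -1.27 (-1.61 to -0.94, FDR 1.47e-14) and -1.34 (-1.86 to -0.85, FDR 5.39e-08). The repeat protein gene LOC_Os09g15750 was counted less often, with 23 tags in SY63, 41 in FU and 31 in FR, against 58 in MH63 and 30 in ZS97. Its log2 ratio of -1.29 (-2.05 to -0.57, FDR 0.000621) was no longer called under any of the other 3 scalings.

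**Figure D3:**
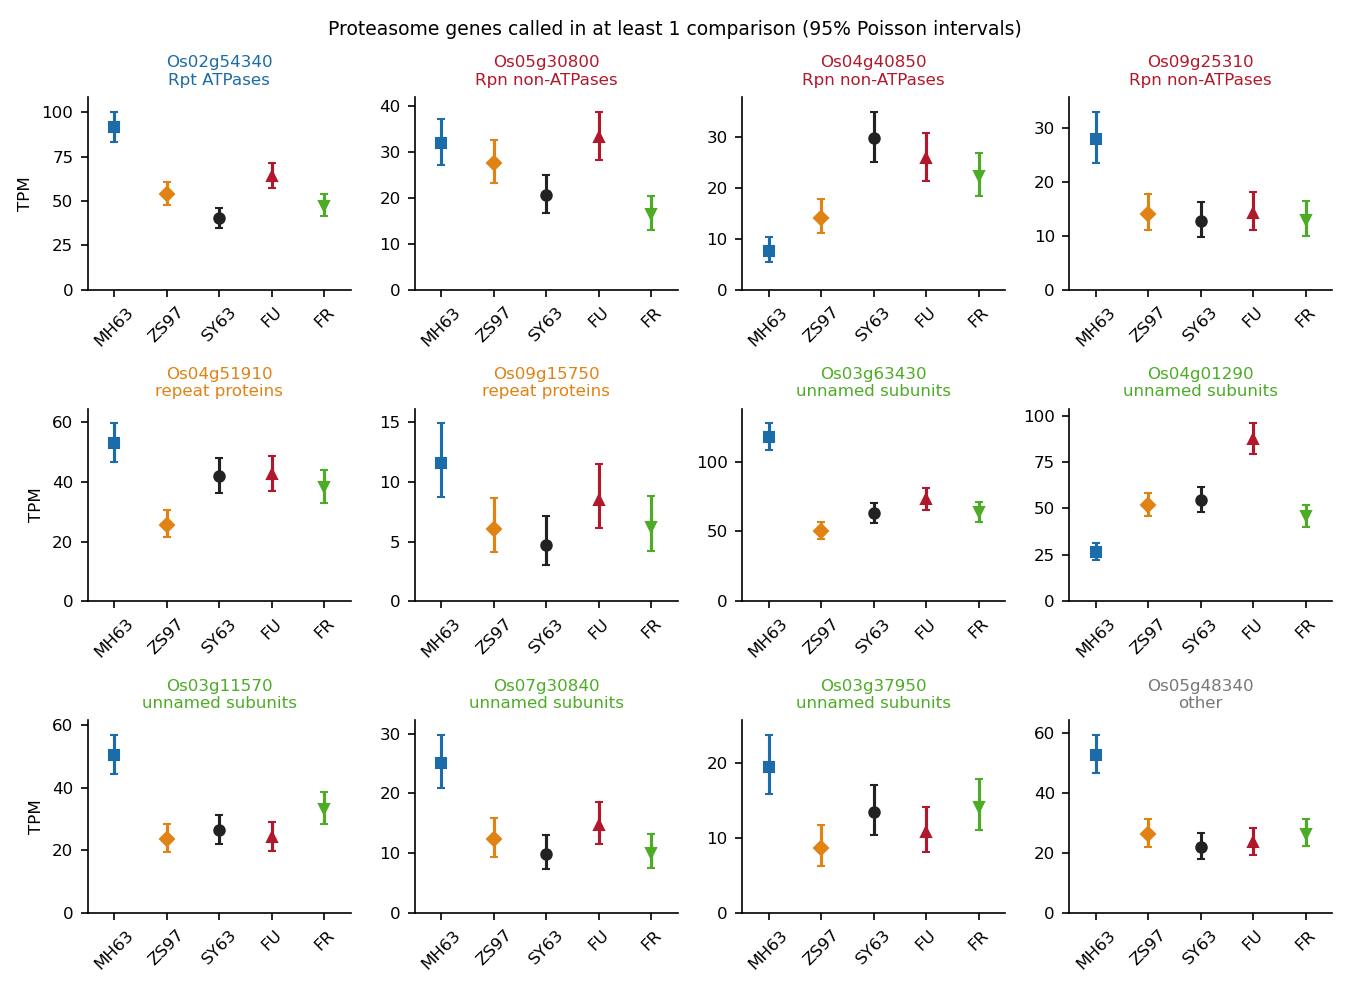
TPM by library, with 95% Poisson intervals, of the 12 proteasome genes called in at least 1 of the comparisons, 1 panel per gene with the group under its name and each vertical axis from 0. MH63 is the highest library in 9 panels, LOC_Os04g40850 is highest in SY63 at 29.6 TPM, and LOC_Os04g01290 (87.3 TPM) and LOC_Os05g30800 (33.2 TPM) are highest in FU.

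Against the female parent ZS97 the hybrid had 1 of 45 proteasome genes called, LOC_Os04g40850, beside 3.95% of all genes. By the FDR alone 4 passed, beside 9.87% of all genes, and 12 had an unadjusted exact p below 0.05, beside 31.5%. The median log2 ratio was -0.05 against 0.03 over all genes. The 3 genes that passed the FDR but not the fold were the repeat protein genes LOC_Os02g05340 (-0.53, FDR 4.40e-06) and LOC_Os04g51910 (0.71, FDR 0.000155), which lay on opposite sides of ZS97, and the inhibitor-related gene LOC_Os07g36420 (-0.66, FDR 0.000267). The description of the last says no more than that. Its level was 28.4 TPM in SY63, 45 in FU and 40.7 in FR, beside 26.1 in MH63 and 44.8 in ZS97, so SY63 lay near the male parent and both transgenic hybrids near the female parent.

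The parents differed more than either transgenic hybrid differed from SY63 in the count of calls. MH63 against ZS97 gave 6 of 44 proteasome genes called, beside 17.5% of all 20560 genes tested. The 6 were all higher in MH63, beside 10.7% of all genes called higher and 6.86% called lower, and 23.6% of genes with at least 50 tags were called. By the FDR alone 19 passed, 16 of them higher in MH63, beside 28.1% of all genes, again without matching for depth. The median log2 ratio was 0.34 over the proteasome genes and 0.18 over all genes, or 0.16 and -0.01 with TMM factors. The calls themselves depended on the scaling. TMM factors lowered every ratio of this comparison by 0.19 and left 1 of the 6 calls, and 3 genes that were lower in MH63 then passed, so the split turned from 6 higher and 0 lower to 1 higher and 3 lower. Over all genes the share called higher went from 60.8% to 45.6%. The edgeR exact test called 0 of 44 proteasome genes here, beside 4.51% of all genes, and 8 had an unadjusted p below 0.05, beside 24.8% of all genes. The green markers had 1 gene called higher and 14 called lower in MH63, and 13 of the 14 were chlorophyll A-B binding genes. The part of the green markers in this result was not tested either.

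The call that held under all 4 scalings was LOC_Os03g63430, an unnamed subunit gene and the most abundant of that group. It had 63.0 TPM in SY63, 73.0 in FU and 63.8 in FR, against 118 in MH63 (592 tags) and 50.4 in ZS97 (250 tags). Again MH63 was high, and the rest ran from 50.4 TPM in ZS97 to 73.0 in FU. The log2 ratio was 1.23 (1.01 to 1.44, FDR 2.04e-30), and 1.04 with TMM factors. The other unnamed subunit genes called were LOC_Os03g11570 with 50.4 TPM in MH63 and 23.6 in ZS97, LOC_Os03g37950 with 19.5 and 8.67 TPM, and LOC_Os07g30840 with 25.1 and 12.3 TPM. For the repeat protein gene LOC_Os04g51910 the levels were 42.0 TPM in SY63, 42.5 in FU and 38.3 in FR, beside 53.0 in MH63 and 25.6 in ZS97, which put all 3 hybrids between the parents. The proteasome-related gene LOC_Os05g48340 completed the calls at a log2 ratio of 1.00 (0.69 to 1.32, FDR 2.73e-10). The 3 genes that passed as lower in MH63 with TMM factors were LOC_Os04g01290 (-1.15), LOC_Os04g40850 (-1.09) and the unnamed subunit gene LOC_Os09g21760 (-1.32).

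Set against the mean of its parents, SY63 had 1 of 45 proteasome genes called, again LOC_Os04g40850, beside 6.34% of all genes. Its log2 ratio to the mid-parent was 1.45 (exact Audic-Claverie FDR 8.75e-14). The test set the SY63 tags against the pooled tags of both parents, while the ratio used the mean of their TPM. The difference between the parents was thus left out of these FDRs. By the FDR alone 10 passed, 3 higher and 7 lower, beside 16.6% of all genes. The median log2 ratio was -0.18, and over all genes it was -0.09. The base ATPase gene LOC_Os02g21970 (regulatory subunit 6B, Rpt3) was among the 3 higher ones at 0.37 (FDR 4.71e-05), and LOC_Os02g54340 (Rpt1) among the 7 lower ones at -0.86 (FDR 2.06e-13). The same base thus held ATPase genes on both sides of the mid-parent.

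By position, SY63 lay below both parents for 18 of 44 proteasome genes, between them for 17 and above both for 9, which is 40.9%, 38.6% and 20.5%. Over all genes the shares were 30.1%, 42.3% and 27.6%. The level in SY63 was nearer to ZS97 than to MH63 for 30 of the 44, or 68.2%, beside 65.6% of all genes. FU lay below both parents for 11 of 43 genes (25.6%, beside 28.2% of all genes) and above both for 12 (27.9%, beside 32.8%). FR lay below both for 15 of 43 (34.9%, beside 32.1%) and above both for 6 (14.0%, beside 25.8%), and with TMM factors it was above both for 9 (20.9%, beside 29.2%). In all 3 hybrids 2 proteasome genes were above both parents, LOC_Os04g40850 (Rpn7) and LOC_Os02g21970 (Rpt3), and 4 were below both: LOC_Os01g32800, LOC_Os03g10120, LOC_Os08g43640 (subunit 3, Rpn3) and LOC_Os06g39870 (regulatory subunit 8, Rpt6). LOC_Os02g21970 had 107 TPM in SY63, 92.3 in FU and 91.6 in FR, against 80.2 in MH63 and 85.5 in ZS97. The 2 genes above are 4.55% of 44, beside 13.9% of all genes, and the 4 below are 9.09%, beside 12.2%. With TMM factors 4 were above and 6 below, which include these 2 and these 4. These positions compare single libraries and were not tested.

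**Figure D4:**
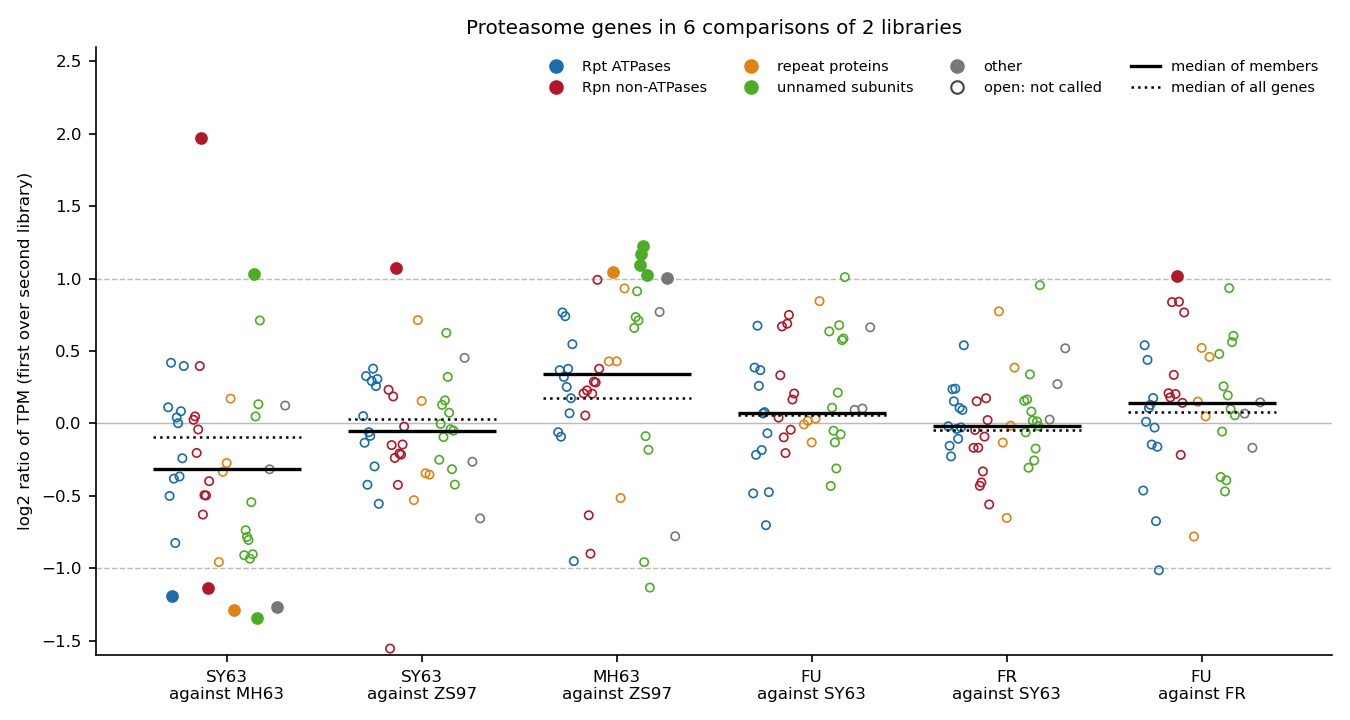
Log2 ratio of TPM for proteasome genes with over 3 tags in both libraries (points, coloured by group, filled when called) in 6 comparisons of 2 libraries, with the median over all members tested (solid line), the median of all genes (dotted line) and the fold threshold at 1 and -1 (dashed). The points spread widest in SY63 against MH63, where the members' median of -0.32 lies below the all-gene median of -0.09, and no point is filled in FU or FR against SY63.

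The second question was what changing OsHDT1 does in the hybrid. FU and FR were each compared with the same SY63 library, so the 2 comparisons share it. FU against SY63 gave 0 of 45 proteasome genes called by the Audic-Claverie test, beside 3.0% of all genes, with 16 at an unadjusted exact p below 0.05 (35.6%, beside 31.1%). The edgeR exact test also called 0, beside 0.164% of all genes, and it had 0 at an unadjusted p below 0.05, beside 8.27%. FR against SY63 gave 0 of 45, beside 1.16% of all genes, with 10 at an unadjusted exact p below 0.05 (22.2%, beside 24.9%). The edgeR exact test again gave 0 for both counts, beside 0.019% and 5.11% of all genes. By the FDR alone 6 passed in FU, beside 9.03% of all genes, and 1 in FR, beside 5.16%. The median log2 ratio was 0.07 in FU and -0.02 in FR, against 0.06 and -0.05 over all genes, and with TMM factors the proteasome medians were 0.015 and 0.01, so that of FR changed sign.

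The FU differences that passed the FDR all lay under 2-fold. LOC_Os03g13970 is non-ATPase subunit 4, the ubiquitin receptor Rpn10, and had 48 TPM in SY63, 76.3 in FU and 42.7 in FR, beside 49.4 in MH63 and 42.2 in ZS97. LOC_Os07g25420 is non-ATPase subunit 8, the lid subunit Rpn12, and had 39.1 TPM in SY63, 65.7 in FU and 36.7 in FR, against 55.2 in MH63 and 45.2 in ZS97. Both genes were highest in FU, and their FR level was close to that of SY63. The log2 ratio of FU to SY63 was 0.67 for LOC_Os03g13970 (0.43 to 0.91, FDR 6.22e-07) and 0.75 for LOC_Os07g25420 (0.49 to 1.02, FDR 3.15e-07). LOC_Os04g01290 (0.68), LOC_Os02g54340 (0.67) and LOC_Os07g36420 (0.66) were the other 3 higher ones.

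The 1 gene that passed in the other direction was LOC_Os02g10640, described as a 26S protease regulatory subunit without a number and the most abundant gene of all 45. It had 116 TPM in SY63, 82.8 in FU and 114 in FR, beside 107 in MH63 and 112 in ZS97. Only FU was low, with a log2 ratio to SY63 of -0.48 (-0.67 to -0.30, FDR 5.29e-06). LOC_Os06g40560, the base ATPase regulatory subunit S10B (Rpt4), was also lowest in FU at 10.4 TPM against 16.9 in SY63, but its FDR was 0.0334.

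In FR the gene that passed the FDR was the repeat protein gene LOC_Os02g05340. Its level was 67.3 TPM in SY63, 67.0 in FU and 115 in FR, against 131 in MH63 and 97.2 in ZS97. FR lay between the 2 parents, and SY63 and FU lay below both. The log2 ratio of FR to SY63 was 0.77 (0.58 to 0.97, FDR 4.14e-13), and that of FU to SY63 was -0.01 (-0.23 to 0.22). LOC_Os09g21760, an unnamed subunit gene of low level, was higher in both transgenic hybrids. It had 38 tags in SY63, 76 in FU and 76 in FR, beside 24 in MH63 and 52 in ZS97. Its log2 ratios to SY63 were 1.01 in FU (FDR 0.00371) and 0.95 in FR (FDR 0.0104), and neither passed the FDR threshold.

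Between the transgenic hybrids themselves, FU against FR gave 1 of 44 proteasome genes called, beside 3.22% of all genes, and 6 by the FDR alone, beside 9.68%. The called gene was LOC_Os05g30800, 1 of 3 genes described as non-ATPase subunit 14, the lid enzyme Rpn11 that cuts the ubiquitin chain off the substrate. Its level was 20.6 TPM in SY63, 33.2 in FU and 16.4 in FR, against 31.9 in MH63 and 27.6 in ZS97. FU stood at the level of the parents, and SY63 and FR were lower. The log2 ratio was 1.02 (0.63 to 1.42, FDR 2.45e-06), just past the fold threshold, and it was 0.94 and not called with TMM factors. LOC_Os04g01290 (0.93, FDR 5.30e-14), LOC_Os07g25420 (0.84, FDR 6.31e-09) and LOC_Os03g13970 (0.84, FDR 2.92e-10) were the next higher ones in FU, and LOC_Os02g05340 (-0.78, FDR 1.12e-13) and LOC_Os02g10640 (-0.46, FDR 1.21e-05) were lower. Of 12 non-ATPase genes with a tag, 10 were higher in FU than in FR, and of 12 Rpt ATPase genes 6 were, beside 56.8% of all genes, whether called or not. With TMM factors the counts were 10 and 5, beside 49.8% of all genes. Over the genes called in this comparison 78.8% were higher in FU, or 67.2% with DESeq2 size factors.

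Several subunits had more than 1 gene, and the balance within such a set was a second reading of the same tags. Tags matching several genes had been discarded before counting, so a gene with a near-identical copy may be undercounted, and the split within a pair is uncertain to that degree. The shift was largest in subunit 6 (Rpn7), which had 4 genes. In the parents LOC_Os04g40850 held 29.9% of the tags of the set (MH63, exact 95% interval 22.1 to 38.7) and 43.5% (ZS97, 35.7 to 51.5). In the hybrids it held 65.2% (SY63, 58.5 to 71.4), 58.2% (FU, 51.3 to 64.9) and 57.7% (FR, 50.4 to 64.8). The second gene, LOC_Os02g38810, kept a level of 14.0 to 17.6 TPM in all 5 libraries. The set as a whole thus ran from 25.3 TPM in MH63 to 45.5 TPM in SY63. The remaining genes were near the floor, with 12 tags for LOC_Os02g38800 in ZS97 and 2 to 4 elsewhere, and 0 to 5 tags for LOC_Os01g74360.

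For subunit 14 (Rpn11), LOC_Os01g16190 was steady at 42.8 to 51.6 TPM, and LOC_Os05g30800 supplied 39.2% of the tags in MH63, 39.3% in ZS97 and 39.1% in FU, but 28.9% in SY63 and 26.8% in FR. The third gene, LOC_Os06g49020, had 2 tags in SY63 and 0 in the other libraries. For subunit 3 (Rpn3), LOC_Os08g43640 held 59.1% of the tags in FU and 74.1% in FR, with 63.2% to 66.3% in the others. In FR its partner LOC_Os09g37000 was the lowest of the 5 libraries, at 15.4 TPM, against 22.6 in SY63.

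Among the ATPases the pair of subunit 7 (Rpt1) was uneven. LOC_Os02g54340 held 78.6% of the tags in MH63 (75.1 to 81.9) and 73.8% in ZS97, and in the hybrids 61.7% (SY63, 56.1 to 67.1), 71.0% (FU) and 67.1% (FR). Its partner LOC_Os06g09290 stayed between 19.2 and 26.1 TPM, so the pair differed between libraries mainly through 1 gene. In the pair without a number, LOC_Os02g10640 held 61.6% in FU (57.7 to 65.3) and 74.5% in SY63 (71.3 to 77.6), and the level of its partner LOC_Os02g11050 was 51.6 TPM in FU and 39.5 in SY63. The pairs of subunits 4 (Rpt2) and 6A (Rpt5) were closer to even. LOC_Os03g18690 held 46.0% to 56.1% of the subunit 4 tags and LOC_Os02g56000 held 46.2% to 53.9% of the subunit 6A tags. In both pairs SY63 was the library with the lowest share. The pairs of subunits 4 and 6A were added to complete the ATPases after their values were seen. The subunit 6B gene LOC_Os09g38730 had 10 to 21 tags a library, far below LOC_Os02g21970 of the same subunit.

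**Figure D5:**
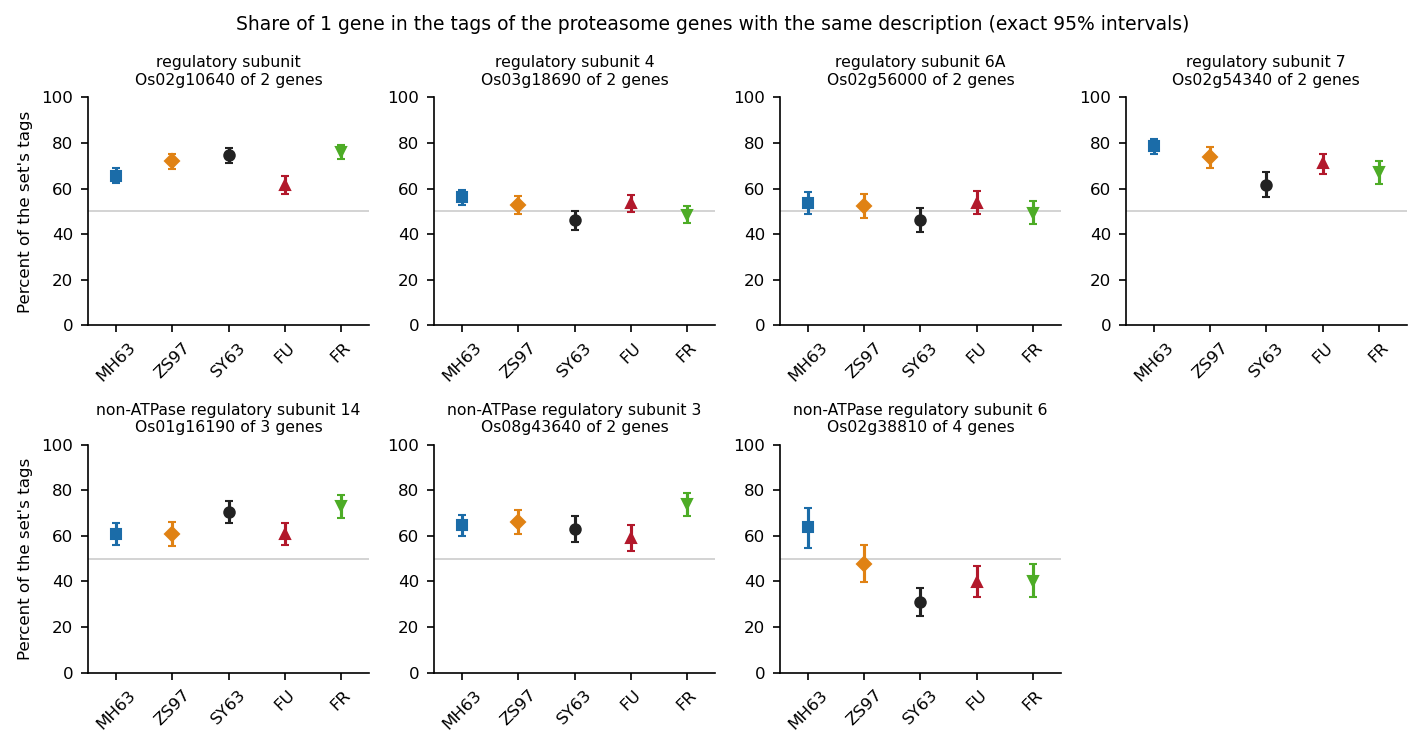
Share of the tags of proteasome genes with 1 description that fell on 1 gene of the set (vertical axes from 0 to 100 percent), by library, with exact 95% intervals. The subunit 6 panel shows LOC_Os02g38810, whose share falls from 63.8% in MH63 to 30.8% in SY63 as LOC_Os04g40850 rises, and the panels of subunits 4 and 6A stay near the grey line at 50 percent.

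The 33 genes not called in any comparison include several with a role of their own. The core assembly factor UMP1, LOC_Os02g55640, had 24.3 TPM in SY63, 25.9 in FU and 24.7 in FR, against 30.3 in MH63 and 17.8 in ZS97, so the hybrids lay between the parents. Non-ATPase subunit 10, LOC_Os03g55110, is known in mammals as the assembly chaperone gankyrin and ran from 15.0 TPM in FR to 23.8 in ZS97. The repeat protein gene LOC_Os06g48640 was lowest in FR at 12.6 TPM, against 19.8 in SY63, with an exact Audic-Claverie FDR of 0.0391. The most even of the genes with enough tags was the unnamed subunit gene LOC_Os04g36700, at 40.7 to 47.2 TPM. LOC_Os02g55640 and LOC_Os04g36700 were picked after their values were seen.

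The other genes of the route were counted from lists drawn by description. The peptidase T1 family, which takes in the alpha and beta subunits of the 20S core, had 21 genes outside the 45. They summed to 823 TPM in SY63, 896 in FU and 794 in FR, beside 920 in MH63 and 761 in ZS97, so MH63 and FU were again the 2 highest, in the reverse order under the other 3 scalings. In SY63 against MH63, 2 of the 21 were called higher and 1 lower with a median log2 ratio of -0.26, and in MH63 against ZS97 0 were called higher and 1 lower. The test called 0 of them in FU or FR against SY63. The calls of the lists that follow stand beside 10.7% of all genes called higher and 6.86% called lower in MH63 against ZS97, and beside 7.1% and 9.37% in SY63 against MH63. Upstream, the ubiquitin-conjugating (E2) enzymes had 7 of 39 called higher and 1 lower between the parents, and 0 of 37 higher and 4 lower between SY63 and MH63. The ubiquitin carboxyl-terminal hydrolases, which take ubiquitin off proteins, had 2 of 49 called higher and 3 lower between the parents, and 2 of 50 higher and 7 lower between SY63 and MH63. For the ubiquitin and fusion genes the counts were 3 and 2 of 27, then 1 and 2 of 28. The Mov34 or PCI domain genes had 1 and 1 of 5, then 1 and 0 of 4, and the RAD23 or UBA genes, a list matched by letters of the description, had 2 and 1 of 10, then 2 and 2 of 10. The 3 ubiquitin-activating (E1) genes, the 3 COP9 signalosome genes, whose complex resembles the proteasome lid, and the 3 genes of the unfoldase CDC48 had 0 calls by the Audic-Claverie test in any comparison. The more abundant E1 gene, LOC_Os11g01510, was highest in FU with 426 tags, against 322 in SY63 and 381 in FR.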

How the data were processed

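Each of the 5 libraries was a tag library of 1 genotype. The authors mapped clean tags to the MSU rice cDNA set, a japonica reference, with up to 1 mismatch. They dropped tags that matched several genes, and deposited for each gene the tag count and the TPM. The deposited tables pair libraries; a gene missing from a table was taken as 0. Their log2 ratios, P values and FDRs, the filtered tables and a tag table were not used. Library totals were recovered from count and TPM (largest gap 0.005 TPM), and 0 sample columns were left unmapped.

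The members and all gene lists were chosen with earlier results of these data known. Roles came from words of the description; the planned alpha and beta words matched none, and the rest was divided after the descriptions were read. Counts were compared by the 2-sided Audic-Claverie test with Benjamini-Hochberg adjustment (Python 3.11.15, scipy 1.17.1), tested on simulated data. A count of 0 was set to 0.01 TPM in ratios, and no ratio of a gene with 3 or fewer tags is printed. Intervals are 95% and cover counting error only. Genes were named when called in any comparison, when among the 2 highest or the lowest of a role, when among the 3 highest or lowest ratios of a comparison with at least 20 tags in both libraries, or when they shared a description with such a gene. Alternatives were edgeR 4.0.16 TMM factors, DESeq2 1.42.0 size factors, totals on genes, a minimum of 10 tags, 1 added to TPM, other member sets, a geometric mid-parent, the FDR alone and an edgeR exact test. The scaling alternatives for summed levels and positions were added after seeing the data. The edgeR exact test also used TMM factors. A quasi-likelihood fit was not possible with 1 library per genotype. Gene sequences and coordinates were not used here.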

Additional observations from a re-analysis of the deposited data

How the results depend on the processing

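With 1 library per genotype no library could be left out, and depth limits the 3 genes with fewer than 10 tags in some library. No paired analysis was possible because the libraries carry no replicate numbers. In the order SY63-MH63, SY63-ZS97, MH63-ZS97, FU-SY63, FR-SY63, FU-FR and SY63-mid-parent, the FDR alone gave 19, 4, 19, 6, 1, 6 and 10 calls in place of 7, 1, 6, 0, 0, 1 and 1. The edgeR exact test, with TMM factors and an assumed coefficient of variation of 0.2, gave 1, 0 and 0 in the first 3. It gave 0 in FU-FR, where TMM and DESeq2 factors alone also gave 0. Adding the peptidase T1 genes gave 3 calls against the mid-parent. In MH63-ZS97 the count of 4 under TMM or DESeq2 factors shared 1 gene with the 6 reported. Medians moved as follows. For SY63-MH63 (-0.32) the value was -0.17 with TMM, -0.18 with DESeq2, -0.24 with totals on genes and -0.24 over genes named as subunits of the particle. For MH63-ZS97 (0.34) it was 0.16, 0.17, 0.26 and 0.29. For FU-SY63 (0.07) it was 0.015 with TMM and 0.0031 with DESeq2, for FU-FR (0.14) 0.061 and 0.058, and for the mid-parent (-0.18) -0.13 with DESeq2. For SY63-ZS97 (-0.05) it was -0.092 with TMM, -0.084 with DESeq2 and -0.028 with the peptidase T1 genes, and for FR-SY63 (-0.018) 0.010 and 0.0018 with TMM and DESeq2. These last moves were smaller than the counting error of the summed ratio, which does not measure the error of a median. Scaling alternatives for the summed log2 ratio were chosen after seeing the data. With TMM, DESeq2 and totals on genes it was -0.22, -0.22 and -0.28 for SY63-MH63 (-0.36), and 0.18, 0.19 and 0.28 for MH63-ZS97 (0.37). With TMM and DESeq2 it was 0.092 and 0.08 for FU-SY63 (0.15), and 0.033 and 0.029 for FU-FR (0.12). A scaling adds 1 constant to all ratios of 2 libraries, so it cannot move the members' median against that of all genes. Over all genes the edgeR exact test called 0.626% in SY63-ZS97 and 0.155% in FU-FR. The calls of LOC_Os04g40850 against MH63, ZS97 and the mid-parent held under all 4 scalings.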

Other observations

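Outside the proteasome genes, the most abundant gene of the ubiquitin list and that of the E2 list were also highest in the MH63 library. LOC_Os02g06640, a ubiquitin family gene, had 12968 tags in SY63, 15075 in FU and 14157 in FR, against 25963 in MH63 and 10814 in ZS97. The E2 gene LOC_Os04g57220 had 2512 tags in SY63, 2150 in FU and 3296 in FR, beside 9729 in MH63 and 3100 in ZS97. Its log2 ratio of MH63 to ZS97 was 1.63 (95% counting interval 1.57 to 1.69), and that of FU to SY63 was -0.21 (-0.30 to -0.13). In clean-tag TPM the most abundant genes of the hydrolase, COP9 signalosome and Mov34 or PCI lists were also highest in MH63. Those of the E1, peptidase T1 and CDC48 lists were highest in FU, and that of the RAD23 or UBA list in ZS97. The second gene of the ubiquitin list, LOC_Os06g46770, had 5836 tags in MH63 and 5550 in FU. The 28 ubiquitin and ubiquitin fusion genes together summed to 4521 TPM in SY63, 5344 in FU and 4577 in FR, against 7341 in MH63 and 3862 in ZS97. MH63 was first and FU second, as for the summed proteasome genes. Most of each sum came from LOC_Os02g06640. The median log2 ratio of MH63 to ZS97 over the genes of this list was 0.13, beside 0.18 over all genes. The COP9 signalosome gene for subunit 5b, LOC_Os04g56070, had 115 tags in SY63, 61 in FU and 73 in FR, and was not called. These are single libraries, and no cause was tested.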
